A study of Mus musculus with 8 samples.

Results

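The interferon-stimulated genes (ISGs) followed here were 42 genes given by symbol, which is 42 of the 56923 genes counted. The rule that names them uses no measured value, but the list was drawn up with earlier results of these data known. RNA was measured by 3′ end sequencing in mouse thymic epithelial cells (TECs), the stromal cells of the thymus that support and select developing T cells. All cells came from wild-type C57BL/6J thymi at embryonic day (E) 16.5 and were sorted as EpCAM+ cells, with no treatment named in the labels. In vivo TECs were lysed directly after sorting. 2D TECs were grown for 3 days on laminin until they formed a monolayer. D3 and D7 organoids grew from sorted TECs in Matrigel, a basement membrane gel, and were collected after 3 or 7 days. All cultures received the same defined medium with FGF7, an epithelial growth factor, and the organoid protocol added thiazovivin, a kinase inhibitor, for the first 2 days. Each group had 2 biological replicates, 8 libraries in all, so that each p-value rests on 2 libraries per group. In vivo TECs and cultures differ in time since dissociation, substrate, medium and the presence of neighbouring thymic cells together, and these cannot be told apart.

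Interferons are secreted cytokines. Type I and type III interferons act through receptor-bound kinases that activate STAT factors, and STAT2 and IRF9 act in a complex that binds the interferon-stimulated response element (ISRE) of target promoters. Interferon-γ acts mainly through the GAS element. The induced proteins sense viral RNA, block translation or membrane fusion, or tag proteins for removal, and several of them (STAT2, IRF9, IRF7) are parts of the pathway itself. In the thymus, TECs are known to make interferon and to carry ISG expression without infection.

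The ISRE core is shown as it occurs in the members that hold it: the 170 bases before the annotated start are given for 6 members picked because they hold an ISRE core and for Ifih1, which holds none and was higher in organoids than in 2D TECs. Sequences run 5′ to 3′ on the strand of the gene, read from GRCm39 with GENCODE M39 starts, and capitals mark each match of the core GAAANNGAAA on either strand, including overlapping matches. The windows are chr4:156285304-156285473 on the minus strand for Isg15, chr19:34618101-34618270 on the plus strand for Ifit1, chr19:34560729-34560898 on the plus strand for Ifit3, chr19:34585158-34585327 on the plus strand for Ifit3b, chr6:121222687-121222856 on the plus strand for Usp18, chr12:26506452-26506621 on the minus strand for Rsad2, and chr2:62476608-62476777 on the minus strand for Ifih1.
Isg15: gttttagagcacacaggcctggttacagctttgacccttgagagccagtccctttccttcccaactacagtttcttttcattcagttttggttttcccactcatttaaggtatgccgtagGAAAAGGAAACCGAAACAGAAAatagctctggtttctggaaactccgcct
Ifit1: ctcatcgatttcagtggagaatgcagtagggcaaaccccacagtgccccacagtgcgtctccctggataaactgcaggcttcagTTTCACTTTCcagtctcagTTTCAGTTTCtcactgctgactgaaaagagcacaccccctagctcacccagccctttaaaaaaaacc
Ifit3: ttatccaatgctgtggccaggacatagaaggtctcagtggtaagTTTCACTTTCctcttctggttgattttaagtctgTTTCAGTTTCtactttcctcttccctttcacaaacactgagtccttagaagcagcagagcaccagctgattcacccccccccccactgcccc
Ifit3b: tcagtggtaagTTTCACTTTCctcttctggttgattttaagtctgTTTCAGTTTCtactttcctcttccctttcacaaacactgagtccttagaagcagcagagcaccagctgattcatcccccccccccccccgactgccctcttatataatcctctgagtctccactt
Usp18: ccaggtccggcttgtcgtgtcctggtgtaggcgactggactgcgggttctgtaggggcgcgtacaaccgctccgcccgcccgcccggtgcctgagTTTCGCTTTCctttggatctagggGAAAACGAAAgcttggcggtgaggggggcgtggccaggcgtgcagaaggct
Rsad2: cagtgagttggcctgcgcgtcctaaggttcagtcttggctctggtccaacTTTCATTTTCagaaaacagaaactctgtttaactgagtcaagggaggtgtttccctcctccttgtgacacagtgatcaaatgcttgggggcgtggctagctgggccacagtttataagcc
Ifih1: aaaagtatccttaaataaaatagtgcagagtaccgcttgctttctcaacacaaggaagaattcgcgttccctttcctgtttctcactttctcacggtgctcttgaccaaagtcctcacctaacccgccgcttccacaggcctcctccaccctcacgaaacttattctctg

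In Isg15 the capitals form a run of overlapping cores, and Ifit1, Ifit3 and Ifit3b each carried the same pair of cores in the same order. Over the 250 bases before the start, 14 of the 42 members (33.3%) held the ISRE core, against 703 of the 21589 other protein-coding genes (3.26%). The GAS core TTCNNNGAA was found in 6 members (14.3%), against 7.71% of the other genes, and in 2 members (Bst2 and Zbp1) a GAS match overlapped an ISRE match. A match describes letters in this window only. Of the 27 members called higher in vivo than in D3 organoids, 8 held the ISRE core, and of the 7 tested members that were not, 1 did (Bst2). Ifih1 does not stand for all members higher in organoids. Of the 5 called higher in an organoid group than in 2D TECs, Stat2 and Ifi27 held the core, and Irf9, Ifih1 and Ifit2 did not.

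Library totals ran from 5084715 to 7612532 counts, of which 22.7% to 29.4% lay in ribosomal RNA genes. Levels are given as CPM, counts scaled to the library total after TMM normalization, and 3 counts in a library, used here as the floor, correspond to 0.372 to 0.593 CPM. Because each transcript yields reads from its 3′ end, CPM is compared between groups for a gene and not between genes. Of the 42 members, 34 reached 1 CPM in at least 3 libraries and were tested among 14504 genes with edgeR at an adjusted p of 0.05. The other 8 (Zbp1, Ifit3, Ifit3b, Oas1a, Oas2, Oas3, Mx2 and Cmpk2) did not. This filter removes genes seen mainly in 1 group of 2, and all 8 had their highest mean in vivo. Over all 42 members, 35 had their highest mean level in vivo, 3 in 2D TECs (Bst2, Parp9, Samd9l), 2 in D3 organoids (Ifih1, Ifitm3) and 2 in D7 organoids (Ifitm1, Ifitm2). At 3 counts or fewer in both libraries stood 1 member in vivo (Oas3), 8 in 2D TECs, 16 in D3 organoids and 9 in D7 organoids.

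**Figure D1:**
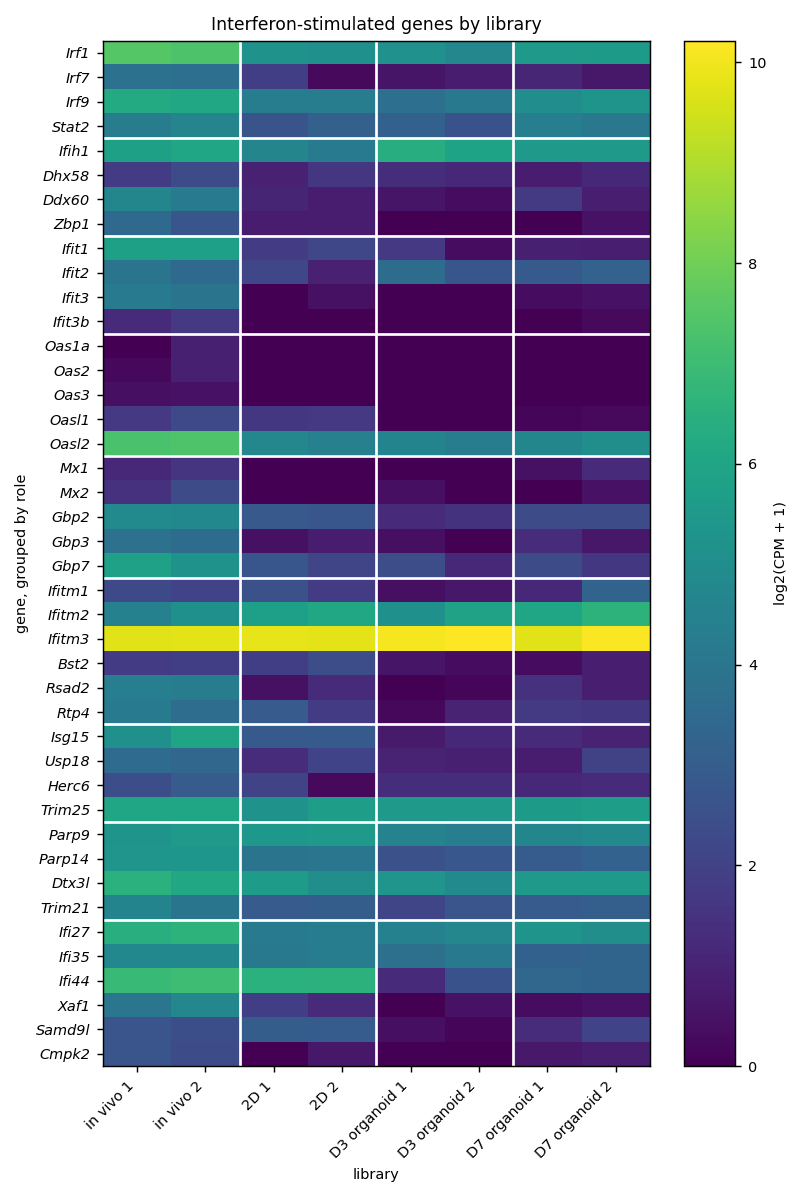
Level of each of the 42 members (rows, grouped by role with white lines) in each of the 8 libraries (columns), as log2(CPM + 1). Rows are to be read across and not compared with each other. The in vivo columns are brightest in most rows, Ifi44 stays bright in 2D TECs, Ifih1 stays bright in organoids, and Ifitm3 is bright in all 8 libraries.

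Most of the tested ISGs were higher in freshly isolated TECs than in culture. Of the 34 tested members, 23 (67.6%) were higher in vivo than in 2D TECs and 1 was lower, where 21.7% of all tested genes were higher and 19.9% lower. Against D3 organoids, 27 members (79.4%) were higher in vivo and 0 lower, against 14.0% and 14.1% of all tested genes. At an unadjusted p under 0.05, 2 members (Ifitm2 and Ifitm3) were lower in vivo than in D3 organoids. Against D7 organoids, 22 (64.7%) were higher and 1 lower, against 16.8% and 18.0%. The 3 comparisons share the in vivo libraries. Counts in vivo by role, given below, are to be read beside these shares of all tested genes. The median log2 fold change of the tested members was 1.70 in vivo over 2D, 2.88 over D3 organoids and 2.01 over D7 organoids, where the medians of all tested genes were 0.06, 0.01 and -0.01. With groups at the floor set to 3 counts per library, the medians over 41 members in each comparison were 1.73, 2.69 and 2.09.

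**Figure D2:**
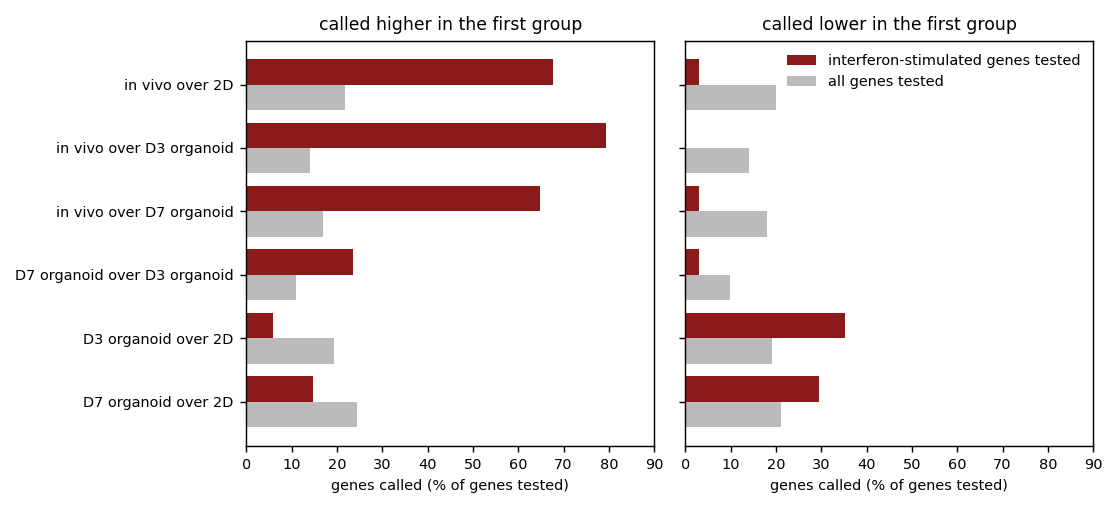
Percentage of tested genes called higher (left) and lower (right) in the first-named group of each comparison, for the 34 tested members (dark bars) and all 14504 tested genes (grey bars). Members exceed all genes among the higher calls in vivo, reaching 79.4% against 14.0% over D3 organoids, and among the lower calls of both organoid groups against 2D TECs.

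RNA of other cells was also higher in vivo. The summed level of 13 thymocyte markers was 808 and 352 CPM in the 2 in vivo libraries and between 6.95 and 13.6 CPM in the 6 culture libraries. Rag1, which starts antigen receptor rearrangement, stood at 287 and 133 CPM in vivo and at most 2.37 CPM in culture, and Ptprc, the pan-leukocyte CD45, at 95.6 and 42.03 CPM against at most 1.12 CPM. Dntt, Cd4 and Cd8a, also on the list, were at 3 counts or fewer in both in vivo libraries. In vivo replicate 1 held 2.29 times the thymocyte sum of replicate 2. Over the 37 members with at least 10 counts in both, the ratio of replicate 1 to replicate 2 had a median of 1.02, from 0.411 (Mx2) to 1.79 (Zbp1). For the 18 of them called higher in vivo than in all 3 cultures the median was 1.1, from 0.55 (Isg15) to 1.6 (Trim21), with 3 above 1.5. Without in vivo replicate 1, the members called higher in vivo numbered 19 over 2D, 24 over D3 organoids and 20 over D7 organoids. Macrophage markers summed to 6.27 and 11 CPM in vivo, 1.09 and 5.75 in 2D TECs, 0.845 and 0.979 in D3 organoids and 13.3 and 11.7 in D7 organoids, the last mostly Lyz2. Dendritic cell markers stayed at or below 0.198 CPM in each library. The part of these cells in the in vivo levels was not tested. Fewer cells expressing a gene and less RNA per cell cannot be told apart in bulk libraries. Epcam, the gene of the sort marker, was at 191.6 CPM or more in all 8 libraries. The 7 thymic epithelium markers summed to 6190 and 6651 CPM in vivo, with 4 higher and 3 lower in vivo than in 2D TECs, and 6 higher and 1 lower than in each organoid group. Among them Foxn1, the factor that drives TEC identity, was at 224 and 274 CPM in vivo, 8.55 and 4.83 in 2D TECs, 8.79 and 9.65 in D3 organoids and 60.7 and 85.2 in D7 organoids.

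**Figure D3:**
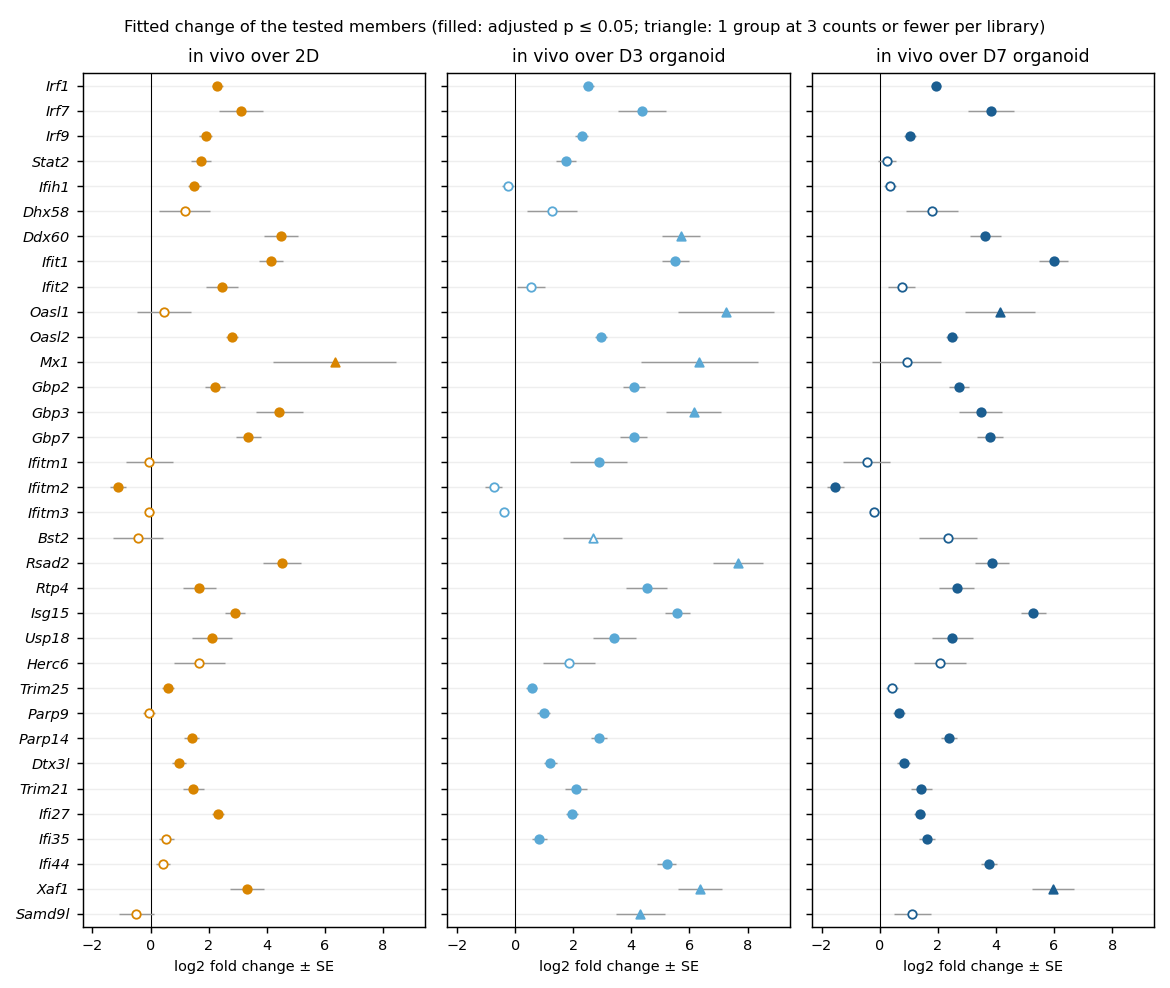
Fitted log2 fold change ± SE (horizontal axis) of the 34 tested members (rows) in vivo over 2D TECs, D3 organoids and D7 organoids. Filled symbols passed an adjusted p of 0.05, and triangles mark fits in which 1 group was at 3 counts or fewer per library, so that the fitted size depends on the prior count. Most filled symbols lie right of 0, and Ifitm2 is the filled symbol on the left, over 2D TECs and over D7 organoids.

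Of the 4 members that carry the interferon signal in the nucleus, 4 were higher in vivo than in 2D TECs, 4 than in D3 organoids and 3 than in D7 organoids. In D7 over D3 organoids 3 (75.0%) were higher, against 10.9% of all tested genes. Among these 3, the call of Irf1 was lost in several other fits, as given below. Irf1, a transcription factor induced by interferon-γ, stood at 184 and 162 CPM in vivo, 37.1 and 33.8 in 2D TECs, 34.8 and 25.9 in D3 organoids and 44.4 and 45.9 in D7 organoids. The 2 in vivo libraries lay above the 6 culture libraries, with a log2 fold change of 2.29 ± 0.19 (SE) over 2D (adjusted p = 3.6e-08). Irf7, which amplifies type I interferon production, was at 13.6 and 12.3 CPM in vivo and at 2.73 CPM or less in culture, with log2 fold changes of 3.12 ± 0.75 over 2D (adjusted p = 0.0030), 4.36 ± 0.83 over D3 organoids (adjusted p = 0.00064) and 3.83 ± 0.79 over D7 organoids (adjusted p = 0.0011).

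Irf9 and Stat2 encode parts of the ISRE-binding complex. Irf9 was at 74.0 and 68.3 CPM in vivo, 19.1 and 18.9 in 2D TECs, 12.2 and 16.6 in D3 organoids and 31.3 and 38.6 in D7 organoids. D7 organoids thus lay between the in vivo libraries and the other cultures, above D3 organoids by a log2 fold change of 1.26 ± 0.23 (adjusted p = 0.00093), above 2D by 0.87 ± 0.22 (adjusted p = 0.0045) and below in vivo TECs, where the log2 fold change in vivo over D7 was 1.03 ± 0.21 (adjusted p = 0.0011). Stat2 was at 19.1 and 24.1 CPM in vivo, 5.27 and 7.80 in 2D TECs, 8.11 and 4.89 in D3 organoids and 19.8 and 16.0 in D7 organoids. Its D7 level overlapped the in vivo range, with a log2 difference in vivo over D7 of 0.27 ± 0.31 that did not pass (adjusted p = 0.55), and exceeded D3 by 1.48 ± 0.34 (adjusted p = 0.0050).

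Sensors of nucleic acid did not move together: of 3 tested, 2 were higher in vivo than in 2D TECs, 1 than in D3 organoids and 1 than in D7 organoids. Ifih1 (MDA5, a sensor of long double-stranded RNA) stood at 54.5 and 62.6 CPM in vivo, 23.8 and 17.3 in 2D TECs, 81.1 and 59.6 in D3 organoids and 45.7 and 45.3 in D7 organoids. Its 2D libraries were the lowest of the 8, and it was higher in D3 organoids than in 2D by a log2 fold change of 1.77 ± 0.22 (adjusted p = 6.5e-06), against the direction of most members. Ddx60, a helicase that aids RNA sensing, was at 25.1 and 17.1 CPM in vivo, 1.09 and 0.743 in 2D TECs, 0.507 and 0.280 in D3 organoids and 2.36 and 0.791 in D7 organoids. Its log2 fold change in vivo was 4.49 ± 0.60 over 2D (adjusted p = 1.1e-05) and 3.64 ± 0.54 over D7 (adjusted p = 5.7e-05). Over D3 organoids, which were at the floor, the ratio of counts was 54.0 (95% exact counting interval 22.8 to 168). Zbp1, a sensor of Z-form nucleic acid, had 98 counts over both in vivo libraries and 0 in D3 organoids, at least 17.0-fold higher in vivo. Dhx58 (LGP2) ranged from 2.44 to 4.23 CPM in vivo and from 0.744 to 2.04 CPM in culture and passed no test.

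The IFIT proteins bind viral RNA and block its translation, and of the 2 tested, Ifit1 was higher in vivo than in each culture and Ifit2 than in 2D TECs. Ifit1 was at 55.4 and 53.5 CPM in vivo, 2.55 and 3.53 in 2D TECs, 2.20 and 0.280 in D3 organoids and 0.868 and 0.791 in D7 organoids. These are log2 fold changes in vivo of 4.16 ± 0.42 over 2D (adjusted p = 3.6e-07), 5.52 ± 0.47 over D3 organoids (adjusted p = 8.6e-08) and 5.99 ± 0.49 over D7 organoids (adjusted p = 6.1e-08). Ifit3 had 197 counts in vivo, 2 in 2D TECs, 0 in D3 organoids and 4 in D7 organoids, so that it was at least 33.5-fold higher in vivo than in D3 organoids, and the ratio of counts was 83.6 (22.8 to 695) over 2D and 50.4 (19.4 to 187) over D7. Ifit3b had 24 counts in vivo and at most 1 in any culture group. Ifit3 and Ifit3b share 11.3% and 13.7% of the 50-base words of their last 500 transcript bases, so that reads may be split between them. Ifit2 was at 14.3 and 10.3 CPM in vivo, 3.46 and 0.928 in 2D TECs, 11.3 and 5.59 in D3 organoids and 6.33 and 8.30 in D7 organoids. It was higher than 2D in D3 organoids (log2 fold change 1.92 ± 0.55, adjusted p = 0.011) and in D7 organoids (1.71 ± 0.56, adjusted p = 0.019), and its level in vivo did not pass the test against either organoid group (adjusted p = 0.44 and 0.24).

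OAS enzymes sense double-stranded RNA and make the messenger that activates RNase L. Of the 2 tested genes of the family, 1 was higher in vivo than in 2D TECs and 2 than in either organoid group. Oasl2 carried nearly all of the family's counts, at 154 and 169 CPM in vivo, 25.5 and 20.8 in 2D TECs, 23.5 and 18.6 in D3 organoids and 25.1 and 32.2 in D7 organoids. Its 3 culture groups lay within 18.6 to 32.2 CPM, with no call between them, and the log2 fold change in vivo was 2.80 ± 0.21 over 2D (adjusted p = 8.9e-09). Oasl1, known to restrain Irf7 translation, had another pattern, at 2.26 and 3.81 CPM in vivo and 2.18 and 2.23 in 2D TECs, with 0 counts in D3 organoids and 2 counts in D7 organoids. It was at least 4.76-fold lower in D3 organoids than in 2D, and the ratio of counts in 2D over D7 was 14.5 (3.59 to 126). Oas1a, Oas2 and Oas3 had 6, 7 and 5 counts in vivo and 0 in all culture libraries, which this depth cannot tell from the floor. Oas1a also shares 28.0% of its 3′ words, with Oas1g and Gm39858.

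Of the 4 tested interferon-induced GTPases, 4 were higher in vivo than in 2D TECs, 4 than in D3 organoids and 3 than in D7 organoids. Gbp2, Gbp3 and Gbp7, guanylate-binding proteins that attack pathogen vacuoles, were at 28.7 and 26.4, 13.4 and 11.3, and 56.4 and 37.0 CPM in vivo. In culture Gbp7 did not exceed 5.64 CPM, and its log2 fold change in vivo was 3.37 ± 0.44 over 2D (adjusted p = 7.7e-06), 4.08 ± 0.46 over D3 (adjusted p = 2.6e-06) and 3.80 ± 0.45 over D7 (adjusted p = 4.4e-06). Gbp3 did not exceed 1.49 CPM in culture, with log2 fold changes of 4.43 ± 0.81 over 2D (adjusted p = 0.00030) and 3.47 ± 0.73 over D7 (adjusted p = 0.0014). Gbp2 was graded among the cultures, at 6.18 and 5.57 CPM in 2D TECs, 1.35 and 1.82 in D3 organoids and 4.09 and 4.15 in D7 organoids, and D3 organoids were below 2D (log2 fold change -1.87 ± 0.42, adjusted p = 0.0018). Mx1 and Mx2 encode dynamin-like antiviral GTPases, and the C57BL/6 strain carries a defective Mx1. Mx1 had 21 counts in vivo and 0 in 2D TECs and D3 organoids, at least 2.89-fold and 3.45-fold higher in vivo, and was at 0.372 and 1.38 CPM in D7 organoids. Mx2 had 40 counts in vivo, 0 in 2D TECs and 2 in each organoid group.

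Among 6 membrane-associated antiviral genes, 2 were higher and 1 lower in vivo than in 2D TECs, 3 and 0 than in D3 organoids, and 2 and 1 than in D7 organoids, and Ifitm2 and Ifitm3 were not called higher in vivo in any of them. IFITM proteins sit in endosomal and surface membranes and hinder virus entry. Ifitm3 was at 862 and 889 CPM in vivo, 919 and 890 in 2D TECs, 1091 and 1188 in D3 organoids and 862 and 1132 in D7 organoids, and no comparison passed (lowest adjusted p = 0.067, in vivo over D3 organoids, log2 difference -0.38 ± 0.15). Ifitm2 was at 21.2 and 33.9 CPM in vivo, 53.5 and 66.8 in 2D TECs, 34.1 and 58.2 in D3 organoids and 62.8 and 96.9 in D7 organoids. Each culture library exceeded both in vivo libraries, and Ifitm2 was the member called lower in vivo, by a log2 fold change of -1.12 ± 0.28 against 2D (adjusted p = 0.0041) and -1.52 ± 0.28 against D7 organoids (adjusted p = 0.00044). Against D3 organoids it was -0.74 ± 0.28 (adjusted p = 0.059). Ifitm2 shares 27.3% of its 3′ words with Ifitm3 and related pseudogenes, so that its counts are uncertain. Ifitm1 was at 3.83 and 3.10 CPM in vivo, 4.73 and 2.41 in 2D TECs, 0.338 and 0.559 in D3 organoids and 1.24 and 8.50 in D7 organoids, where the replicates differed widely.

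Rsad2 (viperin, which makes a chain-terminating nucleotide) was at 19.7 and 19.3 CPM in vivo and at 1.74 CPM or less in culture. Its log2 fold change in vivo was 4.52 ± 0.64 over 2D (adjusted p = 2.1e-05) and 3.86 ± 0.59 over D7 organoids (adjusted p = 7.5e-05), and over D3 organoids, with 1 count in all, the ratio of counts was 255 (45.3 to 10100). Rtp4, a receptor chaperone, was at 17.4 and 11.4 CPM in vivo, 6.55 and 2.41 in 2D TECs, 0.169 and 0.979 in D3 organoids and 2.36 and 2.17 in D7 organoids. Bst2 (tetherin, which holds budding virus on the cell) was lower in organoids than in 2D TECs. It was at 2.44 and 2.68 CPM in vivo, 2.73 and 4.27 in 2D TECs, 0.507 and 0.280 in D3 organoids and 0.248 and 0.791 in D7 organoids. It was lower than 2D in D7 organoids by a log2 fold change of -2.80 ± 1.0 (adjusted p = 0.031), and the ratio of counts in 2D over D3 was 9.12 (3.59 to 29.7).

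Of the 4 genes of the ISG15 system, 3 were higher in vivo than in 2D TECs, 3 than in D3 organoids and 2 than in D7 organoids. Isg15, a ubiquitin-like modifier with a run of ISRE cores in the sequence printed above, stood at 34.1 and 62.1 CPM in vivo, 6.37 and 6.50 in 2D TECs, 0.676 and 1.26 in D3 organoids and 1.37 and 0.989 in D7 organoids. The groups stood in 3 steps that did not overlap, in vivo above 2D by a log2 fold change of 2.90 ± 0.35 (adjusted p = 2.9e-06) and 2D above both organoid groups, where D3 organoids over 2D was -2.68 ± 0.48 (adjusted p = 0.00028) and D7 organoids over 2D was -2.39 ± 0.47 (adjusted p = 0.00049). Usp18, which removes ISG15 and damps the receptor, was at 10.8 and 9.31 CPM in vivo and 3.16 CPM or less in culture, with log2 fold changes of 2.12 ± 0.68 over 2D (adjusted p = 0.018), 3.42 ± 0.74 over D3 (adjusted p = 0.0020) and 2.50 ± 0.69 over D7 (adjusted p = 0.0098). Trim25, a ubiquitin and ISG15 ligase, varied little: 65.3 and 63.8 CPM in vivo and 35.6 to 49.9 CPM in culture, with log2 fold changes of 0.59 ± 0.20 over 2D (adjusted p = 0.022) and 0.56 ± 0.20 over D3 (adjusted p = 0.039). The call over 2D was lost without a filter, and that over D3 without scaling, without a filter, with the DESeq2 test and without ribosomal RNA genes. Herc6, the main ISG15 ligase of the mouse, was at 4.53 and 6.63 CPM in vivo and from 0.186 to 3.27 CPM in culture and passed no test.

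Parp9, Dtx3l and Parp14 act in ADP-ribosylation, and PARP9 and DTX3L form a complex. Of these 3 and Trim21, 3 were higher in vivo than in 2D TECs and 4 than in either organoid group. Parp9 was at 38.5 and 45.7 CPM in vivo and 42.9 and 44.4 in 2D TECs, then 23.0 and 19.9 in D3 organoids and 24.8 and 28.3 in D7 organoids. The 2D level thus overlapped the in vivo level, and both organoid groups were lower than 2D, D3 by a log2 fold change of -1.03 ± 0.21 (adjusted p = 0.00094) and D7 by -0.72 ± 0.21 (adjusted p = 0.0097). Dtx3l did not share this split: at 91.0 and 66.3 CPM in vivo, it was at 47.3 and 32.3 in 2D TECs, 39.2 and 28.8 in D3 organoids and 44.0 and 44.3 in D7 organoids, and it was called higher in vivo over 2D by 0.98 ± 0.23 (adjusted p = 0.0024) with no call among the cultures. Parp9 and Dtx3l overlap on opposite strands, and the strand setting of the counting is not given in the sources used here. Parp14 fell in steps, from 39.0 and 39.8 CPM in vivo to 14.2 and 15.2 in 2D TECs, with 4.73 and 5.87 in D3 organoids and 6.82 and 8.30 in D7 organoids. Its log2 fold change was 1.42 ± 0.26 in vivo over 2D (adjusted p = 0.00026) and -1.46 ± 0.29 in D3 organoids over 2D (adjusted p = 0.00065). Trim21, a cytosolic antibody receptor, was at 23.7 and 14.8 CPM in vivo and from 3.38 to 7.51 CPM in culture, with a log2 fold change of 2.10 ± 0.39 in vivo over D3 organoids (adjusted p = 0.00048).

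Of the 5 other ISGs tested, 2 were higher in vivo than in 2D TECs, 5 than in D3 organoids and 4 than in D7 organoids. The widest gap between 2D TECs and organoids was that of Ifi44, an antiproliferative ISG, among members with more than 3 counts in a library of each group. It was at 117 and 130 CPM in vivo and 91.1 and 94.3 in 2D TECs, and at 1.35 and 5.03 in D3 organoids and 9.30 and 8.90 in D7 organoids. The in vivo and 2D levels did not differ at the threshold (log2 difference 0.41 ± 0.24, adjusted p = 0.18), and D3 and D7 organoids were lower than 2D by log2 fold changes of -4.80 ± 0.32 (adjusted p = 3.5e-09) and -3.34 ± 0.28 (adjusted p = 4.7e-08). Samd9l, a growth-restricting antiviral protein, was likewise lower in D3 organoids than in vivo and in 2D TECs, with 5.40 and 4.51 CPM in vivo, 7.09 and 6.87 in 2D TECs, 0.338 and 0.140 in D3 organoids and 1.49 and 3.16 in D7 organoids. The ratio of its counts in 2D over D3 organoids was 30.4 (10 to 151). In D7 organoids it was lower than in 2D at an adjusted p of 0.048 by edgeR, a call lost without scaling and with the replicate block, and in vivo over D7 did not pass (log2 difference 1.12 ± 0.64, adjusted p = 0.19). Ifi27, of the ISG12 family, ran the other way between cultures: 85.5 and 96.1 CPM in vivo, 17.1 and 19.1 in 2D TECs, 21.3 and 25.2 in D3 organoids and 37.6 and 32.0 in D7 organoids, with D7 over 2D at 0.95 ± 0.21 (adjusted p = 0.0015). Ifi27 overlaps Ifi27l2a on the other strand. Xaf1, a pro-apoptotic ISG, was at 15.0 and 25.8 CPM in vivo, 2.73 and 1.30 in 2D TECs and 0.419 CPM or less in the organoids, and its ratio of counts in vivo over D3 organoids was 91.3 (30.9 to 446) and over D7 organoids 68.8 (26.5 to 254). Ifi35 was at 25.9 and 25.9 CPM in vivo, 16.4 and 19.3 in 2D TECs, 12.7 and 16.5 in D3 organoids and 8.06 and 8.90 in D7 organoids, where it was lower than in 2D (log2 fold change -1.08 ± 0.28, adjusted p = 0.0046). Cmpk2, a mitochondrial nucleotide kinase, had 61 counts in vivo, 3 in 2D TECs, 0 in D3 organoids and 9 in D7 organoids.

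**Figure D4:**
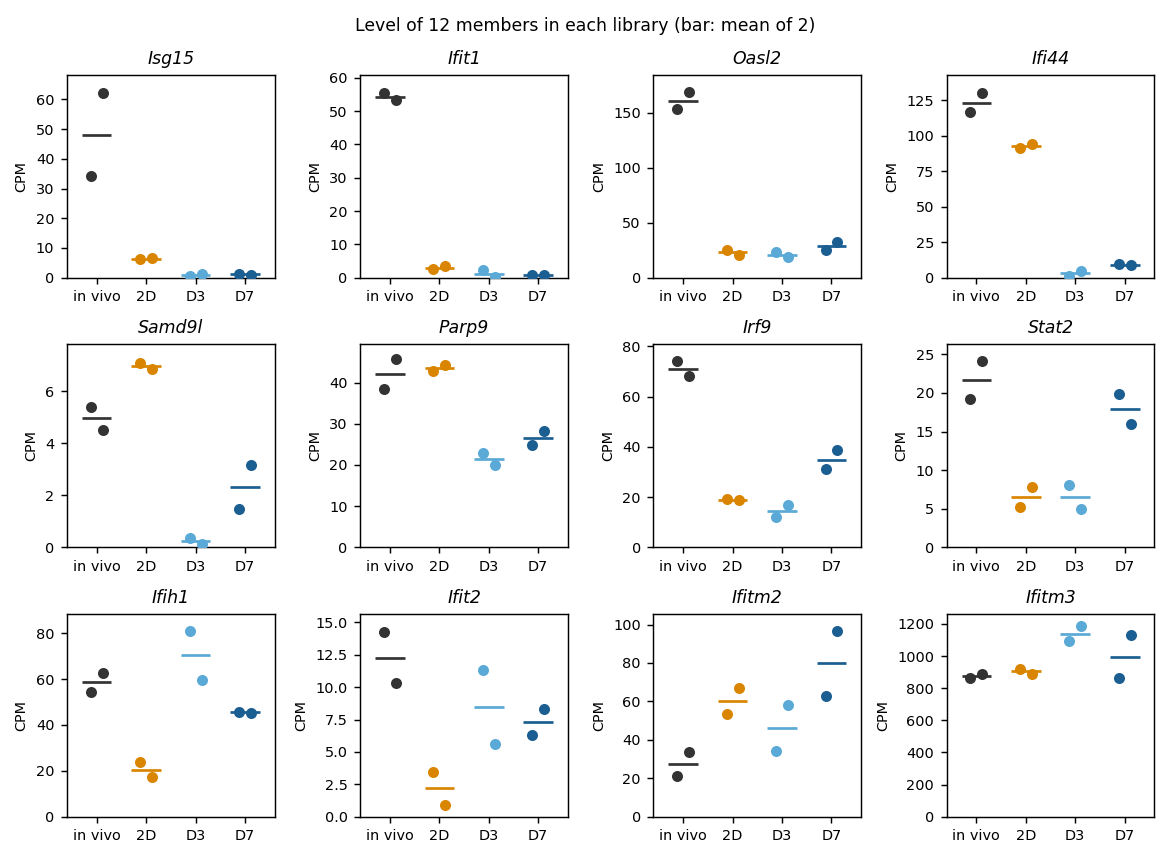
CPM (vertical axis, from 0, a scale of its own in each panel) of 12 members in each library, with a dot per library and a bar at the mean of the 2 replicates. Isg15, Ifit1 and Oasl2 are high in vivo alone, Ifi44, Samd9l and Parp9 are also high in 2D TECs, Irf9 and Stat2 are higher in D7 than in D3 organoids, Ifih1 and Ifit2 are lowest in 2D TECs, and Ifitm2 and Ifitm3 are not highest in vivo.

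Between the culture formats, more members were lower than higher in D3 organoids against 2D TECs, while D7 organoids were more evenly split. In D3 organoids, 12 members (35.3%) were lower and 2 (5.88%) higher than in 2D TECs, against 19.1% and 19.3% of all tested genes. The 12 were Oasl1, Gbp2, Ifitm1, Bst2, Rsad2, Rtp4, Isg15, Parp9, Parp14, Ifi44, Xaf1 and Samd9l, and the 2 were Ifih1 and Ifit2. In D7 organoids, 10 members (29.4%) were lower and 5 (14.7%) higher, against 21.1% and 24.4%, a share of lower calls nearer to that of all genes. The 10 were Ifit1, Oasl1, Bst2, Isg15, Parp9, Parp14, Ifi35, Ifi44, Xaf1 and Samd9l, and the 5 were Irf9, Stat2, Ifih1, Ifit2 and Ifi27. Over 2D the median log2 fold change was -0.87 for D3 and -0.17 for D7 organoids, where all genes had medians of 0.03 and 0.10, and the sign of the D7 median turned under other settings. With groups at the floor set to 3 counts per library it was -0.67 over 34 members and -0.13 over 36. Both comparisons share the 2D libraries. Organoids and 2D TECs differ in substrate and, as far as stated, in thiazovivin, and D7 organoids also in days of culture. These differences cannot be told apart. Epithelial markers also differed between these cultures. The summed level of 7 medullary epithelium markers was 1807 and 1836 CPM in 2D TECs, 338.5 and 245.1 in D3 organoids and 99.99 and 98.3 in D7 organoids, with 4 of 4 tested lower in D3 and 3 of 4 lower in D7 organoids than in 2D. That of 7 thymic epithelium markers was 5482 and 4826 CPM in 2D TECs, 1035 and 985 in D3 organoids and 1590 and 1636 in D7 organoids, mostly Krt8 and Krt18 in 2D TECs, with 3 lower and 1 higher in D3 and 3 lower and 4 higher in D7 organoids. Their part in the ISG levels was not tested. Thymocyte markers were low in all of these libraries, at a sum of 13.3 and 13.6 CPM in 2D TECs, 13.2 and 10.2 in D3 organoids and 6.95 and 10.3 in D7 organoids. Of the 34 members, 17 had a D7 over 2D change above 0. Fewer members were called lower in D7 organoids without either D7 library or without 2D replicate 2, in fits that also called fewer of all tested genes.

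From D3 to D7, most members were not called, though 27 of the 34 tested had a change above 0. Of the 34 tested, 8 (23.5%) were higher in D7 organoids and 1 (2.94%) lower, against 10.9% and 9.91% of all tested genes, and 25 were not called. The median log2 fold change was 0.55, against 0.06 for all genes, and 0.57 over the 33 members with a value once floors were set. The 8 fall in several roles: Irf1, Irf9 and Stat2 among the factors, Gbp2, Ifitm1 and Rsad2 among the effectors, and Ifi44 and Samd9l. Irf9 and Stat2 are given above. Ifi44 rose by 1.46 ± 0.36 on the log2 scale (adjusted p = 0.0081), Gbp2 by 1.35 ± 0.42 (adjusted p = 0.032) and Irf1 by 0.58 ± 0.19 (adjusted p = 0.041). Ifitm1 rose by 3.32 ± 0.98 (adjusted p = 0.023), resting on 8.50 CPM in D7 replicate 2 beside 1.24 in replicate 1. Rsad2 and Samd9l started from 1 and 3 counts in D3 organoids, with ratios of counts of 17.9 (2.83 to 747) and 9.30 (2.87 to 47.8). Ifih1 was the member that fell, by -0.63 ± 0.21 (adjusted p = 0.042). Isg15, Ifit1, Irf7 and Usp18 did not pass: Isg15 and Irf7 stayed at or below 1.37 CPM in all 4 organoid libraries.

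This comparison rested on 2 libraries per organoid group, and fits without 1 of these 4 libraries also called fewer of all tested genes. The median log2 fold change was 0.68 without D3 replicate 1, 0.71 without D3 replicate 2, 0.69 without D7 replicate 1 and 0.51 without D7 replicate 2. When the 4 organoid libraries were fitted alone, the 8 higher calls became 3. In that fit 3382 of 14504 genes were called in either direction, against 3012 in the reported fit. Irf9 was the 1 member whose call held in each of the 8 fits that left out a library. Stat2 was lost without D3 replicate 2, Ifi44 without D3 replicate 1, and Gbp2 without any of the 4 organoid libraries. Irf1 was lost without D3 replicate 2, either D7 library or either 2D library, Rsad2 without either D3 library or D7 replicate 1, and Samd9l and Ifitm1 without either D3 library or D7 replicate 2. Ifih1 was lost without D3 replicate 1 or either D7 library. With limma-voom, the test of the study, Gbp2, Ifitm1, Rsad2 and Samd9l were not called. Irf1 was lost with DESeq2 size factors, without scaling, without a filter, with the DESeq2 test and without ribosomal RNA genes, and Gbp2 without a filter and with the DESeq2 test. In D7 organoids the macrophage marker sum was also higher than in D3 organoids, at 13.3 and 11.7 CPM against 0.845 and 0.979, of which Lyz2 made up 12.2 and 10.3 CPM, while Adgre1, Csf1r, Itgam and C1qa were at 0 counts in both D7 libraries. The sum of 8 mesenchyme markers was 80.9 and 71.4 CPM in D7 against 22.1 and 18.3 in D3 organoids, with 3 of 6 tested higher and 0 lower, and 5 of 7 thymic epithelium markers were higher in D7 organoids and 0 lower. The part of such cells and of these epithelial changes was not tested.

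**Figure D5:**
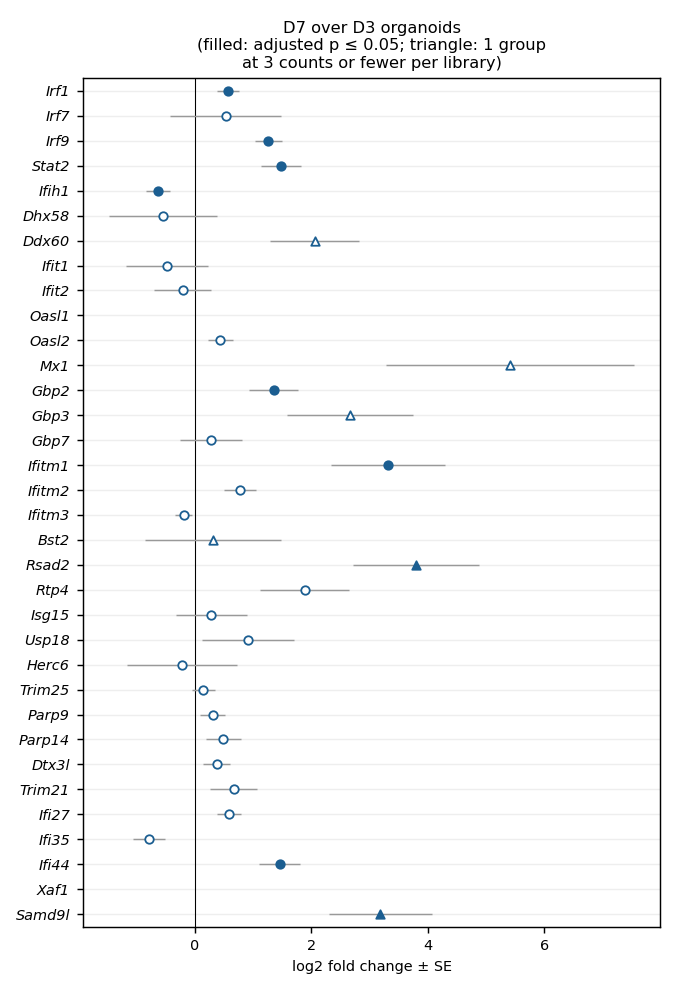
Fitted log2 fold change ± SE (horizontal axis) of tested members (rows) in D7 over D3 organoids, with members at 3 counts or fewer per library in both groups left blank. Filled symbols passed an adjusted p of 0.05, and triangles mark fits with 1 group at the floor. The 8 filled symbols right of 0 include Irf9 and Stat2, and Ifih1 is filled on the left.

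Single libraries also decided some calls of the other comparisons. In vivo over 2D, Rtp4, Usp18, Trim21, Trim25 and the lower call of Ifitm2 were lost without in vivo replicate 1, Mx1 and Trim25 without in vivo replicate 2, Mx1, Trim25 and Usp18 without 2D replicate 1, and Dtx3l, Ifitm2, Mx1 and Rtp4 without 2D replicate 2. In vivo over D3 organoids, Ifi35, Ifitm1, Mx1 and Trim25 were lost without 1 or more of the libraries compared, and Ifitm1 also without 2D replicate 1 and Mx1 without D7 replicate 2. In vivo over D7 organoids, Dtx3l and Trim21 were lost without in vivo replicate 1, Parp9 without in vivo replicate 2, Oasl1, Parp9, Trim21 and Usp18 without D7 replicate 1, and Oasl1 and Parp9 without D7 replicate 2. D3 organoids over 2D, Bst2, Ifit2, Ifitm1, Rsad2, Rtp4 and Xaf1 each lost the call without at least 1 library compared, and D7 organoids over 2D the same held for Bst2, Ifit1, Ifit2, Irf9, Oasl1, Parp9, Parp14, Samd9l and Xaf1. No call turned its sign in these fits. Other processing also ended calls outside D7 over D3. In vivo over D3 organoids, Ifi35 was lost without a filter and with the DESeq2 test, Ifitm1 with limma-voom and with the 4 libraries alone, and Mx1 with the 4 libraries alone. D3 organoids over 2D, Rsad2 was lost without scaling, with the DESeq2 test, with limma-voom and with the 4 libraries alone, Xaf1 with the last of these and limma-voom, and Ifitm1 with limma-voom. D7 organoids over 2D, Ifit1 and Xaf1 were lost with limma-voom and Parp9 without scaling.

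The genes upstream of the members were given by lists of their own. Of 20 interferon genes, 19 had 0 counts in every library, which allows up to 3 counts per library (0.372 to 0.593 CPM), and Ifng, made by T cells and natural killer cells, was at 2.09 and 0.846 CPM in vivo and 0 in culture. The many Ifna genes are close copies, and the treatment of reads with several matches is not given in the sources used here. The receptor subunits were present in the cultures: Ifnar1 ranged from 16.9 to 26.1 CPM over the 8 libraries and Ifnar2 from 17.6 to 34.5 CPM, with Ifnar1 called in no comparison and Ifnar2 in 1, lower in D3 organoids than in 2D TECs by -0.73 ± 0.25 on the log2 scale (adjusted p = 0.030). Of 9 receptor subunits and kinases, 0 were higher and 1 lower in vivo than in 2D TECs, 4 and 0 than in D3 organoids, and 2 and 0 than in D7 organoids. The higher shares are 0%, 44.4% and 22.2%, against 21.7%, 14.0% and 16.8% of all tested genes. In D3 organoids 6 of them (66.7%, against 19.1% of all genes) were lower than in 2D and in D7 organoids 3 (33.3%, against 21.1%), with 0 higher in either. D7 over D3 organoids 1 was higher (11.1%, near the 10.9% of all genes). Ifngr2, a subunit of the interferon-γ receptor, had the largest change of the list between D3 organoids and 2D TECs: 33.8 and 52.6 CPM in vivo, 82.7 and 58.3 in 2D TECs, 15.6 and 18.2 in D3 organoids and 24.1 and 12.8 in D7 organoids, with a log2 fold change of -2.06 ± 0.29 in D3 organoids over 2D (adjusted p = 2.5e-05).

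Of 13 sensors and adaptors upstream of interferon, 11 were tested. In vivo over 2D, 2 were higher and 3 lower, 1 and 2 over D3 organoids, and 1 and 2 over D7 organoids. The shares over 2D, 18.2% higher and 27.3% lower, are near those of all tested genes (21.7% and 19.9%), as are those over both organoid groups, 9.09% higher and 18.2% lower, against 14.0% and 14.1% for D3 and 16.8% and 18.0% for D7. Rigi (RIG-I, the sensor of short double-stranded RNA) was at 98.2 and 87.9 CPM in vivo, 52.7 and 49.6 in 2D TECs, 19.3 and 17.6 in D3 organoids and 41.9 and 41.1 in D7 organoids, so that it ran opposite to Ifih1 between 2D TECs and D3 organoids (log2 fold change -1.47 ± 0.19, adjusted p = 1e-05). Tlr3, the endosomal receptor of double-stranded RNA, was lowest in vivo, at 0.348 and 2.54 CPM, against 23.5 and 24.9 in 2D TECs, 5.92 and 8.53 in D3 organoids and 8.68 and 6.72 in D7 organoids (in vivo over 2D -3.97 ± 0.51, adjusted p = 7.5e-06). D7 over D3 organoids, 3 were higher and 1 lower, the last being Sting1, at 40.2 and 46.3 CPM in D3 and 11.8 and 13.1 CPM in D7 organoids (log2 fold change -1.81 ± 0.25, adjusted p = 0.00013). The D7 over D3 shares were 27.3% higher and 9.09% lower, against 10.9% and 9.91% of all tested genes. Over 2D, 0 were higher and 3 (27.3%) lower in D3 organoids, against 19.3% and 19.1% of all tested genes. For D7 organoids over 2D they were 3 (27.3%) and 3 (27.3%), near the 24.4% and 21.1% of all tested genes.

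Of 9 negative regulators of the pathway, 8 were tested, and in vivo 3 (37.5%) were higher over 2D, 5 (62.5%) over D3 organoids and 3 (37.5%) over D7 organoids, with 0 lower, against 21.7%, 14.0% and 16.8% higher among all tested genes. Socs1 and Socs3, feedback inhibitors of JAK kinases, led them. Socs1 was at 19.3 and 24.1 CPM in vivo, 4.73 and 2.78 in 2D TECs, 0.845 and 2.94 in D3 organoids and 1.49 and 0.395 in D7 organoids. Socs3 was at 274 and 200 CPM in vivo, 65.3 and 64.0 in 2D TECs, 27.0 and 26.3 in D3 organoids and 10.7 and 3.36 in D7 organoids, and was lower in D7 than in D3 organoids by -1.83 ± 0.32 (adjusted p = 0.00068), which is opposite to the members that rose. In D7 over D3 organoids 2 of the 8 were higher and 1 lower, against 10.9% and 9.91% of all tested genes. In D3 organoids over 2D 0 of the 8 were higher and 1 lower, against 19.3% and 19.1%. In D7 organoids over 2D 1 of the 8 was higher and 4 lower, against 24.4% and 21.1%.

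A further list of 44 interferon-inducible genes, of which 34 were tested, had 24 higher and 2 lower in vivo over 2D, 23 and 3 over D3 organoids and 23 and 2 over D7 organoids. The higher shares are 70.6%, 67.6% and 67.6%, against 21.7%, 14.0% and 16.8% of all tested genes. Iigp1, an immunity-related GTPase, had a mean of 331 CPM in vivo and 9.19 in 2D TECs (log2 fold change 5.17 ± 0.21, adjusted p = 5.5e-12), and Cxcl10, a chemokine for T cells, a mean of 144 CPM in vivo against 0.588 in D3 and 0.731 in D7 organoids (7.84 ± 0.33, adjusted p = 1.5e-11, and 7.53 ± 0.32, adjusted p = 2.6e-11). Phf11d had a ratio of counts in vivo over 2D of 38.0 (16.0 to 118) and Ifi203 over D7 organoids of 80.3 (31.0 to 296), and Ifi47 was at least 27.3-fold higher in vivo than in D3 organoids. Between cultures, 8 were higher and 13 lower in D3 organoids than in 2D, 8 and 7 in D7 organoids than in 2D, and 7 and 2 in D7 than in D3 organoids. The lower shares against 2D, 38.2% for D3 and 20.6% for D7 organoids, stand beside 19.1% and 21.1% of all genes. The higher shares against 2D, 23.5% for each organoid group, were near the 19.3% and 24.4% of all genes. Among the 42 followed ISGs the higher shares of those tested were 5.88% and 14.7%. In D7 over D3 organoids, 20.6% were higher and 5.88% lower, beside 10.9% and 9.91% of all genes. Ifi204, a DNA-binding ISG, averaged 21.6 CPM in 2D TECs, with ratios of counts of 141 (38.6 to 1170) over D3 and 94.4 (31.9 to 461) over D7 organoids. Igtp had the largest D7 over D3 change above the floor, from a mean of 0.449 to 3.02 CPM (log2 fold change 2.64 ± 0.61, adjusted p = 0.0052).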

How the data were processed

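The authors aligned QuantSeq 3′ reads to GRCm39 with STAR and deposited raw counts per Ensembl gene, unnormalized, as 1 file per library. The annotation release, strand setting and treatment of reads with several matches are not given in the sources used here. The submitters' processing notes name R 4.1.2, edgeR and limma. Of 56923 genes, 56236 matched GENCODE M39, including all 42 members. Counts were scaled by TMM, filtered at 1 CPM or more in at least 3 of 8 libraries as in the study's methods, and fitted over all 8 libraries with edgeR 4.0.16 (quasi-likelihood test, two-sided, Benjamini-Hochberg over 14504 genes, threshold 0.05). The study's own test was limma-voom, tried here as an alternative. A group at 3 counts or fewer in both libraries was treated as at the floor: fold changes are then bounds, or ratios of counts with exact 95% intervals, which cover counting error only. Replicates differed beyond counting noise (chi-square per degree of freedom 6.82 to 8.70), so none was a copy. The fit was tested on simulated data. Members and lists were chosen with earlier results of these data known. All members are named by role; from each further list the 2 called genes with the largest change per comparison were eligible. Alternatives were DESeq2 size factors and test, no scaling, other filters, limma-voom, a replicate block, ribosomal RNA genes left out, the compared libraries alone, and each library left out. Promoter windows were read from GRCm39, and 3′ words are 50-base words of the last 500 transcript bases. An item of the pathway is not reported here.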

Additional observations from a re-analysis of the deposited data

How the results depend on the processing

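No result was reversed among single members: of 1068 values of the 112 called changes under alternatives that keep every library, 1030 stayed past the threshold and 38 did not, and of 896 values with 1 library left out 796 did and 100 did not. A lone replicate was then assumed to vary like the other groups. Requiring a mean of 10 CPM left 17 members, of which 12, 14 and 12 were higher in vivo than in 2D TECs, D3 and D7 organoids. Of all 9029 genes then tested, 4574, 3147 and 3988 were called in either direction. In D3 organoids 1 member was higher and 4 lower than in 2D, and in D7 organoids 4 were higher and 6 lower. Of all genes, 4405 and 4980 were called in either direction in these 2 comparisons. Lower calls in D3 organoids were thus 4 of 17 members, beside 12 of 34 in the reported fit. The share of all genes called lower alone is not given for this filter, so no excess of lower calls can be read from these 4. Many of those 12 calls were therefore of members at low levels. The medians then were 1.57, 2.00 and 1.38 in vivo, 0.42 for D7 over D3, -0.26 for D3 over 2D and 0.21 for D7 over 2D.

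Without a filter the medians in vivo were 2.19, 3.98 and 2.47, and with 1 CPM in at least 2 libraries, a filter chosen after seeing the data that tested 39 members, 2.11, 3.41 and 2.38. With it 28, 31 and 24 members were higher in vivo, where 6566, 4498 and 5432 of 15883 genes were called in either direction. Zbp1 and Ifit3 were among these members in all 3 comparisons. The members added by this filter (Zbp1, Ifit3, Ifit3b, Mx2 and Cmpk2) reached 1 CPM in the in vivo libraries alone. They entered through the group where they are high, and the medians in vivo with this filter include them. Their calls were thus close to fixed in advance and add nothing to the counts above. D3 over 2D the medians were -0.64 and -1.03. In vivo over 2D the median was 1.88 without scaling and 1.83 with limma-voom, and D3 over 2D it was -0.61, -0.80 and, without ribosomal RNA genes, -1.01. The D7 over 2D median turned above 0 without scaling (0.024), without a filter (0.0032), with limma-voom (0.053) and with 1 CPM in 2 libraries (0.14), and was -0.0076 without ribosomal RNA genes, so it has no stable sign. Leaving out scaling moved the median of all genes to 0.24, 0.29 and 0.31 for in vivo, D3 and D7 over 2D, and D3 over 2D 4 members were then higher; the cause of the other shifts was not tested.

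Members lower in vivo than in D3 organoids, 0 in the reported fit, numbered 2 without scaling, without a filter, with the replicate block and without ribosomal RNA genes (Ifitm2 and Ifitm3), and 1 with the DESeq2 test, limma-voom or the 4 libraries alone. D7 over D3, 3 members were higher with the 4 libraries alone, and 2 were lower with DESeq2 size factors, without scaling, with the block and without ribosomal RNA genes.

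With 1 library left out, members higher in vivo ranged from 19 to 23 over 2D, 23 to 27 over D3 and 18 to 23 over D7, and lower from 0 to 1, 0 to 1 and 1 to 1; the medians ranged from 1.65 to 1.86, 2.81 to 2.92 and 1.71 to 2.23. D7 over D3, 3 to 10 were higher and 0 to 2 lower (median 0.51 to 0.71). D3 over 2D, 1 to 2 were higher and 9 to 12 lower (median -1.09 to -0.61). D7 over 2D, 3 to 5 were higher and 3 to 10 lower (median -0.24 to 0.029).

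The labels do not say whether libraries with the same replicate number belong together. Their deviations from the group means correlated by 0.0376 to 0.149 between groups, weakly but above 0 for each pair of groups. More of all tested genes were called in each comparison with the number as a block. These values do not settle whether the libraries are paired. With the number as a block 23, 27 and 22 members were higher in vivo, 10 higher in D7 than D3, and 12 and 9 lower in D3 and D7 organoids than in 2D. Members near the floor are limited by depth.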
